A study of Mus musculus with 6 samples.

Results

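The RNA profile of unrecombined control neural stem cells from mouse cortex at embryonic day 14.5 was described from 3 arrays, chosen as those whose titles name the adenovirus with green fluorescent protein (Ad-GFP), out of 6 arrays in the series. Each array held total RNA of 1 culture of 1 of 3 cell lines, numbered 2, 7 and 8. The other 3 arrays were cultures of the same lines given an adenovirus with Cre recombinase (Ad-Cre), which per the series design turns on mutant IDH. The series title names the mutation as IDH1-R132H. The levels below come from Ad-GFP arrays, unless the Ad-Cre arrays or an exchange of the line 8 arrays are named. Differences between the viruses were not tested. Both kinds of culture were infected at a multiplicity of 100 and washed after 24 hours. The control is therefore an infected culture in which, by the design, the inducible mutant allele has not been turned on, and 0 arrays of uninfected cells or of cortex tissue were analysed here. The sources used here do not give the strain, the promoter behind the mutant allele, or whether the lines came from separate embryos. A free-text label marks arrays as M, WT or NA, and its marks for line 8 are reversed relative to the other lines. Arrays were placed by title and transduction label, which do not conflict, and the named genes whose line 8 value moves by over 1 log2 unit with the line 8 arrays exchanged are given after the regional genes.

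Neural stem cells of the embryonic cortex, the radial glia, line the ventricle, divide there, and make neurons first and glia later. The transcription factors Sox2 and Pax6 and the filament protein nestin mark them in the tissue. Emx1, Emx2 and Pax6 set out the dorsal telencephalon, Eomes (Tbr2) marks the intermediate progenitors that radial glia produce, and Tbr1 marks young deep-layer neurons. Grown as dividing cultures, such cells are known to take on features of glial progenitors, among them Olig2 and the epidermal growth factor receptor.

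Signals are log2 values, so 1 unit is a 2-fold difference. Of 23152 genes, 2316 (10%) were called bright, with a mean over the 3 arrays above 11.08, the 90th percentile of all genes. Another 9436 genes (40.8%) were near background, at or below 7.16, which is the 95th percentile of 1358 olfactory and vomeronasal receptor genes, and 11400 (49.2%) lay between and were called intermediate. The stretch from 7.16 to 8.05, the 99th percentile of the same receptors, is called low intermediate. These receptors serve smell and are not known to be used by cortical progenitors, and their median was 5.04 against 7.78 for all genes. Bands sort the signal of the probes, which differ in how well they bind. Ribosomal protein genes, needed by every cell, show how far probes matter, with 16 of 66 measured bright, 42 intermediate and 8 near background. Bands and values are therefore not an order of RNA amount between genes. The 3 arrays were much alike, with correlations across genes of 0.993 to 0.995 and a standard deviation (SD) over lines under 0.2 for 86.2% of genes. Each line had 1 Ad-GFP array, so the SD holds both line and array differences.

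The 20 genes with the highest signal, leaving out ribosomal, mitochondrially encoded, predicted and numbered family genes, served the glial skeleton, energy supply and lipid synthesis among other roles. Vim, the intermediate filament vimentin of radial glia, led with a mean of 14.58 ± 0.02 (SD, n = 3). It was followed by Ckb, the brain creatine kinase, at 14.54 ± 0.05 (SD, n = 3). Scd2, a fatty acid desaturase of the brain, read 14.40 ± 0.02 (SD, n = 3). The mitochondrial ATP synthase subunit Atp5b stood at 14.37, the membrane glycoprotein Gpm6a at 14.12, the RNA-binding protein Qk of glia at 14.01 and the GABA transporter Slc6a11 at 13.91. The other 13 of these 20 genes were Ppia, Gnb1, Ndufs7, Rtn3, Cox6a1, Fads2, Fth1, Eef2, Cd81, Fabp7, Cs, Tubb5 and Ttyh3.

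Sequences around gene starts are shown for genes at both ends of this range, with the CpG dinucleotides in capitals. CpG-rich promoters are known to belong to housekeeping and developmental genes, and CpG-poor ones more often to tissue-restricted genes. Each window holds 250 bases before and 50 bases after the start of the gene in RefSeq on GRCm38.p6, written 5′ to 3′ on the strand of the gene. Sox2 (chr3:34649745-34650044, plus strand, 27 CpG) and Olig2 (chr16:91225300-91225599, plus strand, 25 CpG) are bright transcription factors with dense CpG. Fabp7 (chr10:57784673-57784972, plus strand, 6 CpG) is a bright gene with few. Eomes (chr9:118477939-118478238, plus strand, 10 CpG) is a developmental factor near background. Olfr122 (chr17:37768392-37768691, plus strand, 3 CpG) stands for the receptors that set the background level.
Sox2: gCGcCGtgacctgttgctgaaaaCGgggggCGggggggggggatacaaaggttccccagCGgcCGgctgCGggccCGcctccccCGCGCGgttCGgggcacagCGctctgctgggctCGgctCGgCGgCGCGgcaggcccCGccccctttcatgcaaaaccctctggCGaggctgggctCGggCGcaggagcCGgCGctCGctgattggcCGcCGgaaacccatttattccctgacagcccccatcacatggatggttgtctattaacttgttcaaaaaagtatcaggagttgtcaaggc
Olig2: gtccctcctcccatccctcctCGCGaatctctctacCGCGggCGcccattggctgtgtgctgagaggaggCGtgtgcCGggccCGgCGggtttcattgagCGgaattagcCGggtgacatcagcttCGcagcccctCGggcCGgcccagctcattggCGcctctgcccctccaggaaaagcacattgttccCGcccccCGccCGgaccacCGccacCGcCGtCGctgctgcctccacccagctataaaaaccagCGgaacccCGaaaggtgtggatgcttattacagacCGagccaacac
Fabp7: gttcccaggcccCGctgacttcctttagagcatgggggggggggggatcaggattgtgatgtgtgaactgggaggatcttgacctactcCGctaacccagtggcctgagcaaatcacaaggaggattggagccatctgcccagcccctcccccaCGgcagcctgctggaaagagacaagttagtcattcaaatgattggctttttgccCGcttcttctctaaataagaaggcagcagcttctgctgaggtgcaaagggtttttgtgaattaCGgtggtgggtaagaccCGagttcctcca
Eomes: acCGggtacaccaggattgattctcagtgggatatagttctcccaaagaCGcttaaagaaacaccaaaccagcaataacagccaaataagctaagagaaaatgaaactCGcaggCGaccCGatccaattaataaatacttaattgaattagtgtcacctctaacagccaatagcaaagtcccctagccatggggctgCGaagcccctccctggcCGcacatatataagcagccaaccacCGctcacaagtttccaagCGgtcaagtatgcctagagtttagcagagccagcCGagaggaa
Olfr122: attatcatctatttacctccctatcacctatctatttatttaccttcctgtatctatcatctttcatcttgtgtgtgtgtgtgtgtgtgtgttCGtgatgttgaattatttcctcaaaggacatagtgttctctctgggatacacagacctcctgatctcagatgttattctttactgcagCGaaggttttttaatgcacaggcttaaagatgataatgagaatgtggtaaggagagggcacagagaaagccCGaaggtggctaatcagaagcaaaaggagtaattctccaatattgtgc

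A gene with several starts took the median CpG count of its windows. Over the 15968 genes with such a window, the median number of CpG was 24 for 1713 bright genes, 20 for 8015 intermediate genes and 3 for 6240 genes near background. The olfactory and vomeronasal receptors had a median of 1, and they are part of the group near background. Regional patterning genes near background did not share that low count, with a median of 15 over 46 genes, whereas metabolic genes near background had 6 over 27 genes. The letters TATAAA were searched on both strands. At least 1 window held them for 7.65% of bright, 9.12% of intermediate and 22.9% of near-background genes. The share was 14.4% over all these genes and 39.5% of the receptors. Of the 5 windows printed, the one of Olig2 holds them. These counts are a description of the windows, not of factor binding.

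**Figure D1:**
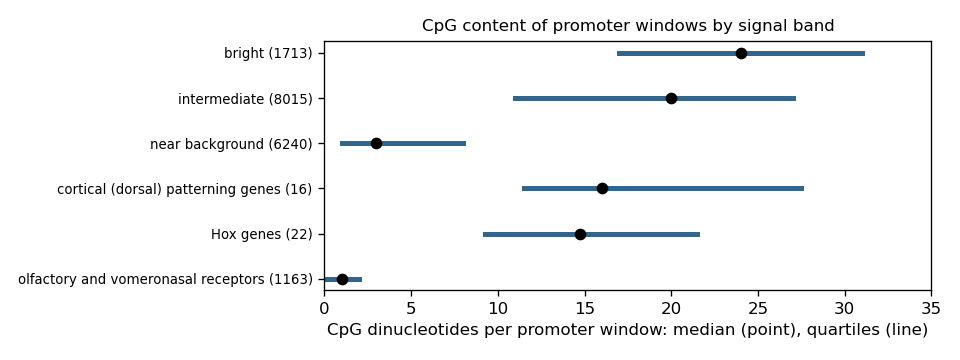
CpG dinucleotides per promoter window of 300 bases (horizontal axis, count), as the median (point) and quartiles (line), for genes in each signal band and for 3 gene groups, with the number of genes in brackets. Bright and intermediate genes have medians of 24 and 20, near-background genes of 3, and the cortical patterning and Hox genes lie at 16 and 14.75 although most Hox genes are near background.

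The cultures carried the markers of neural stem cells. Values in each triplet are in the order of lines 2, 7 and 8. Sox2, which keeps neural progenitors undifferentiated, read 13.22, 13.29 and 13.16. Fabp7, a lipid-binding protein of radial glia, read 13.93, 13.98 and 14.04. Nes, which encodes nestin, read 11.76, 11.86 and 12.17. All 3 were bright on every array and kept that band under each of the 12 alternatives for levels.

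Pax6, the dorsal progenitor factor, was intermediate at 10.16, 10.23 and 10.11, at percentile 79.4 of all genes. It changed band under at least 1 alternative. Olig2, a factor of oligodendrocyte and ventral progenitors, read 13.21, 13.13 and 13.27 and was bright on every array and under the same 12 alternatives. Among these 5 markers the widest span over the 3 lines was 0.41 log2 units, for Nes. The labelled cell type thus had its defining markers present, with Pax6 the only one of the 5 not bright.

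Of 29 neural stem cell and radial glia genes measured, 17 were bright, 11 intermediate and 1 near background, with a median of 11.93. After Vim and Fabp7 came Ptprz1, a receptor phosphatase of glial progenitors, at 13.83. Slc1a3, the glutamate transporter of radial glia and astrocytes, read 13.74, and Ednrb, the endothelin receptor, 13.51. Egfr, through which epidermal growth factor drives division, read 13.45, 13.45 and 13.48. At the low end stood Hopx at 8.18, Prom1 (CD133) at 7.59 and Fut4, the enzyme behind the stage-specific embryonic antigen, at 7.01. Prom1 and Fut4 are often used to sort neural stem cells by protein, and here Prom1 was low intermediate and Fut4 near background.

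Genes of dividing cells were bright in 18 of 25 and near background in none, with a median of 11.81. Cdk4, a kinase that starts the cell cycle, read 13.67, Plk1 12.83 and Ccnd2 12.71. Mki67, made by cycling cells, read 12.67, 12.64 and 12.82. The lowest were Birc5 at 10.19, Ccne1 at 9.51 and Cdk6 at 8.70. All of them were above the low intermediate range.

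Markers of the intermediate progenitor step were split. Btg2, an antiproliferative gene of neurogenic divisions, was bright at 12.45, and Dll1, a Notch ligand, at 11.51. Neurog2, the proneural factor of the dorsal cortex, read 8.81, 8.62 and 8.72. Neurod4 and Neurog1 were both low intermediate at 7.32. Eomes read 6.49, 6.52 and 6.54, near background in every line, though it left that band under at least 1 alternative. In all, 2 of 12 were bright, 9 intermediate and 1 near background.

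Neuronal genes resembled genes in general in their share near background. Of 26 measured, 1 was bright, 13 intermediate and 12 near background (46.2% against 40.8% of all genes), with a median of 7.39 against 7.78 for all genes. The bright one was Mtap2, which encodes a microtubule protein of dendrites, at 13.34, 13.36 and 13.17. Snap25, of synaptic vesicle fusion, read 10.20, and Tubb3, the tubulin of young neurons, 9.18. The lowest were Tbr1 at 6.04, Neurod6 at 6.04 and Nefl, a neurofilament subunit, at 5.41. Dcx, of migrating young neurons, was intermediate at 8.37, 8.82 and 8.33.

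Genes of early glia were bright or intermediate, and none of mature oligodendrocytes was bright. Of 12 oligodendrocyte progenitor genes, 5 were bright and 7 intermediate. Olig1, partner of Olig2, read 13.82, 13.80 and 13.79, Bcan, a matrix proteoglycan, 12.74 and Sox8 12.10. Pdgfra, the growth factor receptor that defines these progenitors, was intermediate at 10.94, 10.54 and 10.37, and Sox10, a factor of the committed lineage, was lowest at 7.80, 8.06 and 8.32. Of 11 mature oligodendrocyte genes none was bright and 5 were near background. Cnp, a myelin enzyme, led these at 10.47, and the myelin genes Mbp at 7.09, Mag at 6.14 and the late gene Ermn at 5.72 were near background.

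Astrocyte genes were bright in 12 of 20 and near background in none, with a median of 11.20. Aldoc, the brain aldolase, read 13.76, 13.55 and 13.26. Mlc1, a membrane protein of astrocyte endfeet, read 13.36 and Ndrg2 13.03. The 3 lowest were in the low intermediate range. Gfap, the filament protein of mature astrocytes, read 7.48, 7.73 and 8.33, S100b 7.75 and Gjb6 7.24. Lists of stem cell and astrocyte genes overlap in biology, since radial glia make many astrocyte genes themselves.

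Of the markers of other cell types, those of vessels, mesoderm and pluripotent cells were near background more often than the 40.8% of all genes, and few markers of any such type were bright. Endothelial genes were near background in 9 of 12 (75%) and bright in none, and the vessel genes Cldn5 at 6.46 and Emcn at 5.03 were among the lowest. Microglia and macrophage genes were near background in 7 of 14 (50%, close to the share of all genes) and bright in none, with a range of 5.26 to 8.57. Ptprc (CD45) read 5.26 and Aif1 5.89, whereas Cd68, a lysosomal protein, read 8.57. Pluripotency and germ cell genes were near background in 6 of 10 (60.0%) and the others low intermediate, with Pou5f1 at 6.84. The 14 genes of mesoderm, endoderm and muscle reached 7.93 at most, with 9 near background (64.3%). Ependymal and choroid plexus genes were near background in 4 of 10 and neural crest genes in 3 of 8, about the share of all genes, and none was bright. Among 14 fibroblast, meningeal and pericyte genes, 8 were near background and 1 was bright. The bright one was Acta2, smooth muscle actin, at 11.29, 12.09 and 10.13, while the fibroblast genes Lum at 5.25 and Dcn at 6.22 were near background.

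**Figure D2:**
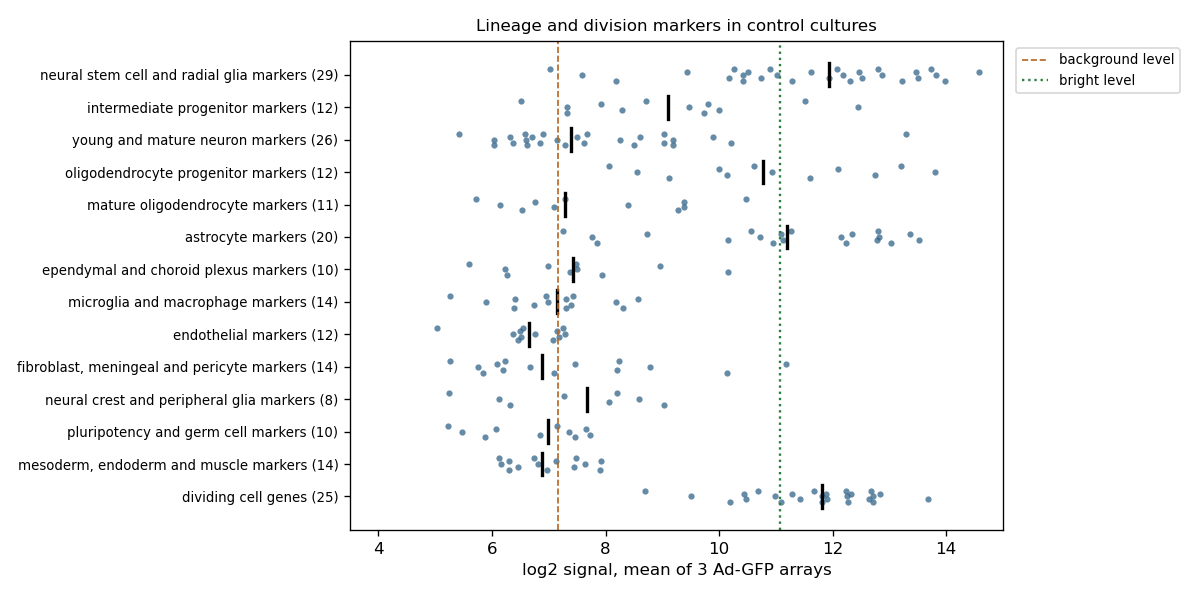
Mean log2 signal of the 3 Ad-GFP arrays (horizontal axis) for each measured gene (point) of 14 lineage and division lists, with the list median (black bar) and the number of genes in brackets; the dashed line is the background level of 7.16 and the dotted line the bright level of 11.08. Stem cell, astrocyte and dividing cell genes have medians above the bright level, and endothelial, microglial, pluripotency and mesodermal genes have medians below the background level.

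Regional genes were mixed in signal, and several defining genes of the dorsal cortex were near background. Of 16 cortical patterning genes 8 were intermediate (50%), 8 near background (50%) and none bright. Over all genes the shares were 49.2% intermediate, 40.8% near background and 10% bright. As a list, these genes were thus close to genes in general in the first 2 shares. Emx2, which patterns the dorsal telencephalon, read 9.06, 8.65 and 9.68, and Gli3, the mediator that represses ventral fate, 8.78, 8.68 and 9.54. Emx1, the dorsal telencephalic homeobox gene, read 6.68, 6.51 and 6.85. Dmrt3 at 6.06, Wnt8b at 5.97 and Lmx1a at 5.62, genes of the medial cortex and hem, were also near background. Eomes and Tbr1, described above, belong to this list too. Emx1, Eomes and Tbr1 left the near-background band under at least 1 alternative, and Pax6 left the intermediate one. The labelled tissue thus had some of its patterning genes at intermediate signal and others near background.

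Subpallial genes, which pattern the ventral telencephalon, were low as well. Of 14, 6 were low intermediate and 8 near background (57.1%, against 40.8% of all genes). Dlx2, of ventral progenitors and interneurons, was highest at 7.98, 7.85 and 7.97. Gsx2, which specifies the lateral ganglionic eminence, read 6.97, 6.45 and 7.37, and Nkx2-1, of the medial one, 6.83, 6.85 and 6.86. Olig2 was thus bright in cultures in which Gsx2 and Nkx2-1 averaged near background.

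Factors shared by forebrain and other neural progenitors were mostly intermediate. Of 11 general forebrain genes, 1 was bright, 8 intermediate and 2 near background. Rfx4, of neural tube progenitors, read 11.94, 12.25 and 11.94, and Zic1 10.90, 10.90 and 11.22. Otx2, which marks the early forebrain and midbrain and later the choroid plexus, read 9.85, 10.68 and 9.96. Hesx1 at 5.52, of the early anterior neural plate, was near background.

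Some genes usually placed behind the telencephalon had intermediate signal. Of 12 diencephalic and hypothalamic genes, 10 were intermediate (83.3% against 49.2% of all genes), 3 of them low intermediate. The highest was Tcf7l2 of the thalamus at 10.55, 10.70 and 9.77. Of 12 spinal cord genes, 8 were intermediate (66.7%), 5 of them low intermediate. Dbx2, of interneuron progenitors in the spinal cord, led that list at 10.05, 10.79 and 10.03. In the midbrain and hindbrain list 8 of 12 were near background, with Ptf1a, the factor of cerebellar inhibitory neurons, at 6.36 and En1 at 6.28, while En2 was intermediate in all lines. The 38 Hox genes, which set out hindbrain and spinal cord, were near background in 34 and low intermediate in 4, and the highest, Hoxb5 and Hoxd10, averaged 7.67. Whether such signals came from all cells or a few cannot be told apart in pooled cultures, nor can fewer cells of a type from less RNA per cell.

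Several of these regional genes had different signals in the 3 lines. Over all genes, the 3 Ad-GFP arrays spanned more than 1 log2 unit for 212 (0.916%). Among the 114 measured genes of the regional lists, 10 did so (8.77%), and in 9 of them line 8 stood apart. Lower in line 8 was Nr2f2, a nuclear receptor of caudal and ventral forebrain, at 10.68, 11.15 and 8.36. Barhl2, of diencephalon, read 10.37, 10.09 and 7.68. The Iroquois genes Irx1 (9.37, 9.07 and 7.47), Irx2 (9.33, 9.27 and 7.10) and Irx5 (9.49, 9.55 and 8.20) moved the same way, as did Foxb1 at 8.66, 8.71 and 6.43. All 6 thus had lines 2 and 7 together and line 8 lower by over 1 log2 unit.

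Higher in line 8 was Six3, of the anterior forebrain, at 8.21, 8.17 and 10.04. En2, of midbrain and isthmus, read 8.47, 8.80 and 10.66. Emx2 was higher too, at 9.68 against 9.06 and 8.65. The higher genes of line 8 thus included anterior, dorsal and midbrain genes together. Pax3, of dorsal neural tube, stood apart in line 7, at 6.25, 9.45 and 6.50.

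These spans rest on 1 Ad-GFP array of each line. The line apart is the highest or lowest of the 3, whichever lies further from the middle one, at any distance. On the Ad-Cre arrays, line 8 stood apart in the same direction for 4 of the 6 lower genes and 1 of the 3 higher genes. Line 7 did not stand apart for Pax3. There, Nr2f2 read 10.37, 9.93 and 8.57, and Six3 7.93, 8.23 and 8.99. Distances were smaller for Irx1 (7.57, 7.60 and 7.09), Irx2 (8.13, 7.85 and 7.38) and Foxb1 (7.12, 7.03 and 6.63). Over all 212 genes with such spans, the same line and direction recurred in 18 of 69 genes lower in line 8 (26.1%) and 17 of 55 higher in it (30.9%). Over all genes, whatever their span, these shares were 16.6% and 11.5%. With the line 8 arrays exchanged, 7 of the 10 spans stayed above 1, and without line 8 only that of Pax3 did. Over all genes, line 8 was the line apart in 58.5% of the 212 genes and in 39.8% of all genes. No regional gene passed the test for line differences described further on.

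If the free-text marks of line 8 were right, its other array would be the control. Between the 2 arrays of line 8, 41 of 1033 list genes moved by over 1 unit. The same count over all genes was not made, so it is not known whether such moves are more common in the lists. Among the regional genes, Irx5 would read 9.63, Barhl2 8.94, Six3 8.99, En2 9.24 and Otx2 8.78 in line 8. Irx5 would then no longer be lower in line 8 than in the other lines. Among glial and stem cell genes, Pdgfra would read 8.41, Gpr17 7.22, Aqp4 8.68, Ndrg2 11.23, Aldh1l1 10.46, Mfng 9.37 and Prom1 6.36, each below the value used. The neuronal genes Dcx at 6.49 and Snap25 at 8.16 would be lower too. Among receptors and channels Erbb4 would read 10.90, Kcnj10 10.53, Kcnc4 10.46 and Grin2a 8.51. The mean of Grin2a would then be intermediate and that of Prom1 near background.

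**Figure D3:**
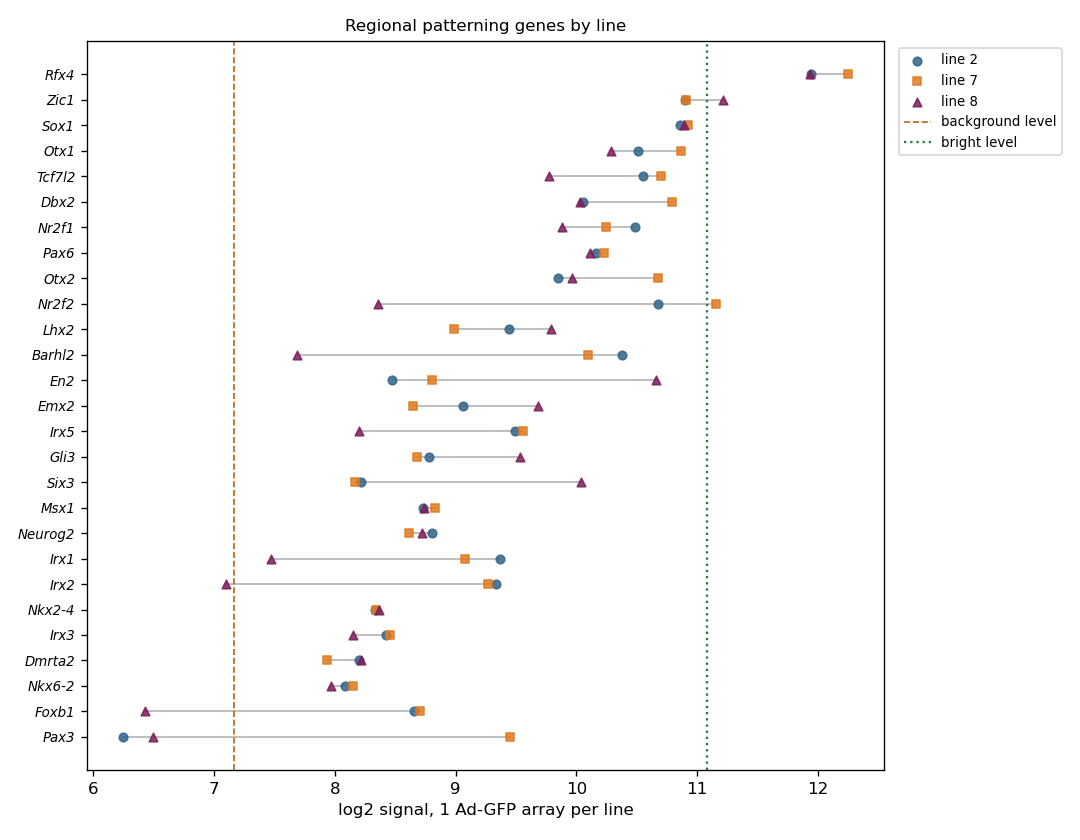
Log2 signal (horizontal axis) on the Ad-GFP array of line 2 (circles), line 7 (squares) and line 8 (triangles) for the 27 regional genes that averaged above 8.05 or spanned over 1 unit; grey lines join the lowest and highest array, the dashed line is the background level and the dotted line the bright level. Line 8 lies below both others for Nr2f2, Barhl2, Irx1, Irx2, Irx5 and Foxb1 and above them for Six3, En2 and Emx2, and line 7 lies above both others for Pax3.

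Receptors for growth factors gave a profile with a few bright members. Of 51 receptor tyrosine kinases, 8 were bright (15.7% against 10% of all genes), 30 intermediate and 13 near background. Behind Egfr came Ddr1, a collagen receptor, at 12.34, 12.24 and 12.42 and the Wnt co-receptor Ryk at 12.31. Erbb4, a neuregulin receptor, read 11.98 and Fgfr1, a main fibroblast growth factor receptor, 11.52. Fgfr3 was bright in lines 2 and 7 at 11.67 and 11.43 and intermediate in line 8 at 10.29. Epha6 at 6.07 and Epha1 at 5.97 were lowest.

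Among 18 cytokine receptors 5 were bright and 8 near background. Bright were the parts of the receptor for ciliary neurotrophic factor, a signal that turns progenitors to astrocytes, with Cntfr at 11.84, 11.44 and 12.10, Lifr at 11.61, 11.48 and 11.30 and the shared chain Il6st at 11.15 ± 0.13 (SD, n = 3). The type I interferon receptor chain Ifnar2 read 11.22 and the type II chain Ifngr2 11.20. Osmr, the oncostatin M receptor, at 6.18 and the lymphocyte receptor Il7r at 4.56 were near background. The bright band thus held all 3 chains of the ciliary neurotrophic factor receptor, although each of the 3 left it under at least 1 alternative.

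For bone morphogenetic proteins, which also favour astrocytes, Bmpr2 read 13.04, 13.02 and 13.06 and Bmpr1a 11.93, 12.06 and 12.10. They were the only bright members of 14 receptors of this family, of which 9 were intermediate and 3 near background. Notch1, which holds progenitors in the stem state, read 12.36, 12.25 and 12.34, and its ligand Dll1 11.55, 11.34 and 11.64. Of 9 Notch receptors and ligands only Jag2, at 7.11, was near background. Hes5, a direct Notch target of the stem cell list, was bright at 12.54, 12.58 and 12.46. The related gene Hes1 was intermediate, and stayed so under every alternative.

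Wnt receptors were intermediate in 11 of 15. Fzd3 read 11.61, the co-receptor Lrp6 11.48 and Fzd9 11.22. In the Hedgehog pathway the receptor Ptch1 was bright at 12.77, 12.68 and 12.49 and the transducer Smo at 11.20. Gli1 was near background at 6.48, 6.48 and 6.43. Whether the pathway was active was not tested. Shh itself read 6.84. Gli1 left its band under at least 1 alternative. The Hedgehog mediators Cdon (9.98, 9.47 and 11.15) and Gli2 (9.45 in line 8 and 8.30 in line 2) were highest in line 8, and each spanned over 1 unit.

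Several transmitter receptors were bright although the classes as wholes were not. Among 17 ionotropic glutamate receptor genes, Gria2, the AMPA receptor subunit that limits calcium entry, read 12.35, 12.09 and 12.45 and the kainate receptor subunit Grik5 read 11.55. Gria1 was near background at 7.06, 6.74 and 6.27. Grin1, which every NMDA receptor needs, was intermediate at 8.66, and Grin2a at 7.03 and Grin2b at 7.04, its partner subunits, were near background.

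Of the 7 metabotropic glutamate receptors, Grm3 was bright at 12.38, 11.83 and 12.42 and Grm5 at 11.48, 11.48 and 11.34. Both are the forms known from astrocytes and glial progenitors. Grm2, Grm7 and Grm8 lay between 5.71 and 6.10. Grm4, at 7.83, was the single intermediate member, so the family had 2 bright and 4 near-background genes.

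GABA receptors were near background in 13 of 18, compared with 40.8% of all genes. Bright were Gabbr1, a subunit of the metabotropic receptor, at 12.44, 12.09 and 12.13 and the ionotropic subunit Gabrg1 at 11.49, 11.46 and 11.42. Gabbr2, the partner of Gabbr1, was intermediate on average and spanned over 2 units, at 11.06, 10.68 and 8.62. The beta subunits Gabrb2 at 6.10 and Gabrb1 at 5.30 were near background.

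Acetylcholine and monoamine receptors had no bright gene. The nicotinic subunit Chrna4 was highest of 21 cholinergic receptors at 10.21, 10.27 and 10.48, and 14 were near background. Of 20 monoamine receptors 15 were near background, and the serotonin-gated channel Htr3a was highest at 8.15. The purine receptors were led by P2rx7, an ATP-gated channel, at 10.20, 10.37 and 10.57, with 8 of 16 near background.

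Peptide, lipid and adhesion receptors held 5 bright genes of 32. Gpr56, an adhesion receptor of radial glia, read 13.78, 13.68 and 13.66. Adcyap1r1, the receptor of the peptide PACAP, read 13.27 and the thrombin receptor F2r 12.69. Opioid receptor genes Oprk1 at 6.17 and Oprm1 at 6.04 were near background. Together with Egfr and Bmpr2, the receptors Gpr56, Ednrb and Adcyap1r1 averaged above 13.

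Voltage-gated sodium channel genes, a list of pore-forming and auxiliary subunits, were mostly dim. They were near background in 9 of 11, against 40.8% of all genes. The exceptions were Scn8a at 9.20, 8.86 and 9.12 and the auxiliary subunit Scn3b at 8.77, 8.24 and 8.44. Scn2a was not among the 11. Scn1a, of inhibitory neurons, read 5.51, 5.23 and 5.48. Of 88 potassium channel genes, 5 were bright, 42 intermediate and 41 near background (46.6%, close to the share of all genes). Bright were Kcnd2 at 12.95, 12.66 and 12.52 and Kcnd3 at 11.28, which form A-type currents, and Kcnip3 at 12.03, which binds such channels. Kcna2 read 12.21, and Kcnj10, the inward rectifier of astrocytes that clears potassium, 11.92, 11.74 and 11.67. Kcnj10 kept the bright band under only some of the alternatives.

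Calcium channel genes were bright in 2 of 26 and near background in 10 (38.5%). Those were auxiliary subunits that also escort AMPA receptors, Cacng7 at 13.02, 12.89 and 13.01 and Cacng4 at 11.61. The highest pore-forming subunit was Cacna1h, a T-type channel, at 9.87. Thus Cacng7, Cacng4 and Gria2 were bright together while the calcium channel pores were not.

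In the other channel groups, Trpm7, a magnesium and calcium channel found in most cells, read 11.80, 11.72 and 11.76. It was the 1 bright member of 24 measured TRP and HCN genes, of which 16 were near background. No Piezo gene was among those measured. Chloride channels were bright in 4 of 26, with Clcn6, of late endosomes, at 12.08, Lrrc8b, of volume-regulated channels, at 11.80, and the lipid scramblase Ano6 at 11.56. Cftr read 5.96. The glial connexins Gjc3 at 13.22, 13.20 and 12.80 and Gja1 at 12.23, 12.35 and 12.46 were the bright members of 30 connexin, pannexin and aquaporin genes. Aqp4, the water channel of astrocytes, was intermediate at 9.88, 10.31 and 10.30.

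**Figure D4:**
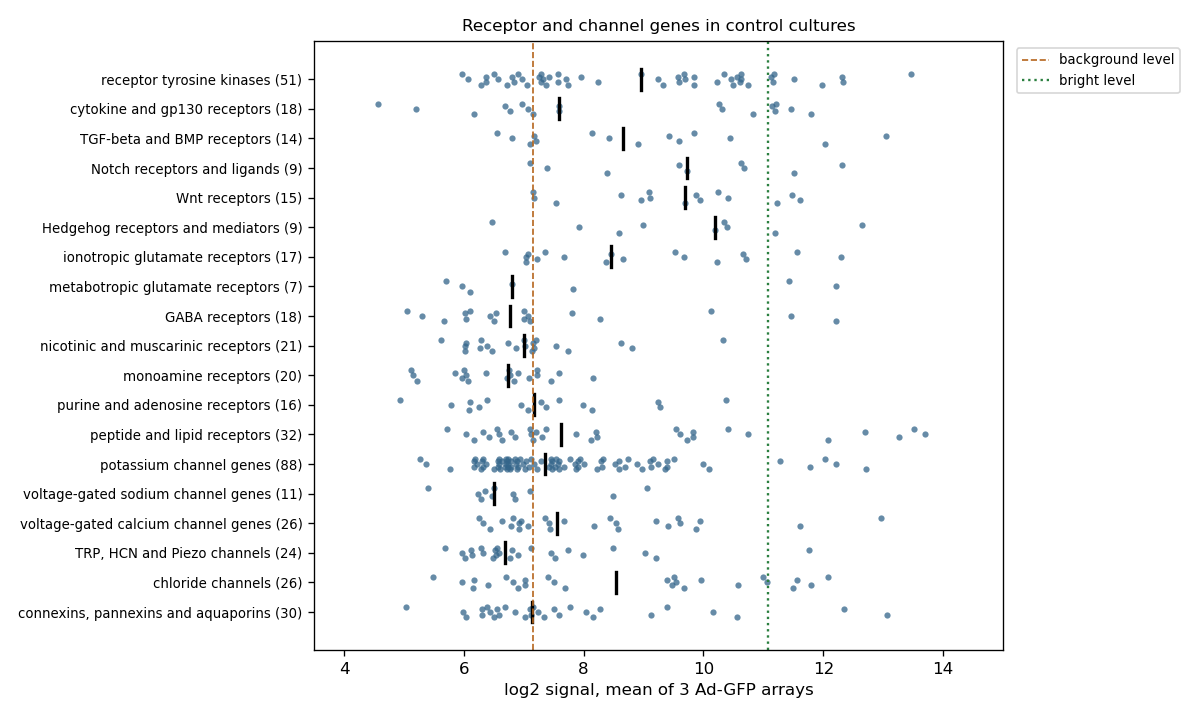
Mean log2 signal of the 3 Ad-GFP arrays (horizontal axis) for each measured gene (point) of 19 receptor and channel lists, with list medians (black bars), the number of genes in brackets, and the background level (dashed, 7.16) and bright level (dotted, 11.08). Monoamine, GABA and sodium channel genes have medians below the background level, and Hedgehog genes have the highest receptor median at 10.20, while single genes such as Egfr, Gpr56 and Gjc3 stand above 13.

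Many metabolic genes were bright, in the citric acid cycle, glutamate metabolism, sterol and fatty acid synthesis and fatty acid breakdown. Of 28 citric acid cycle genes, 18 were bright, 9 intermediate and 1 near background. Cs, citrate synthase, read 13.99, 13.95 and 13.97, and Mdh2, a malate dehydrogenase of the mitochondrion, 13.60. The one near background was Pdha2, the testis form of pyruvate dehydrogenase, at 6.18, while the general form Pdha1 read 10.41.

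The isocitrate dehydrogenases concern the mutation that the study set out to induce. Idh1, the cytosolic enzyme that makes NADPH, was bright in the controls at 12.78, 12.60 and 12.58. Its mitochondrial counterpart Idh2 read 11.76, 11.86 and 11.80, and the subunits of the NAD-linked enzyme were bright as well, with Idh3g at 13.21, Idh3b at 12.69 and Idh3a at 11.55. All 5 genes were bright, and Idh1 kept that band under all alternatives whereas Idh2 and Idh3a did not. Whether the probe sets tell the alleles of Idh1 apart was not tested.

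Glutamate enzymes were bright in 8 of 13. Got2, a mitochondrial transaminase, read 13.48, 13.47 and 13.50 and Glud1, glutamate dehydrogenase, 13.19, 13.20 and 13.10. Gpt2, the mitochondrial alanine transaminase, was bright at 12.39, and its cytosolic form Gpt near background at 6.96. Glul, glutamine synthetase, read 12.15.

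Cholesterol synthesis had 11 bright genes of 18 and none near background, with a median of 11.95. Hmgcs1, which makes the precursor HMG-CoA, read 13.66, 13.60 and 13.48, and Fdft1, the first step devoted to sterols, 13.40, 13.38 and 13.24. Fatty acid synthesis had 9 bright genes of 17. Beside Scd2, these included the desaturases Fads2 at 14.07, Scd1 at 13.72 and Fads1 at 13.57, the elongase Elovl6 at 13.54 and Fasn, the fatty acid synthase, at 13.22. The tissue-restricted relatives Scd3, at 6.66, and Elovl3, at 5.73, were near background.

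Fatty acid breakdown genes were bright in the same cultures, in 10 of 17, with 7 intermediate. Hadha, of the trifunctional protein, read 12.82 and Cpt1a, which lets fatty acids into mitochondria, 12.32, 12.02 and 12.33. Cpt1c, the brain form, read 11.55. Its muscle relative Cpt1b was lower, in the intermediate band at 8.40.

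Glycolysis genes divided by isoform. Of 22, 7 were bright, 10 intermediate and 5 near background. Gpi1, glucose phosphate isomerase, read 13.70, 13.77 and 13.71, Aldoc 13.52 and Pgk1 13.44, and Pkm, the general pyruvate kinase, 12.66. The liver form of that kinase, Pklr, was low intermediate at 7.21. Forms of testis, muscle or blood cells were near background, namely Pgk2 at 5.53, Pgam2 at 6.74 and Hk3 at 6.86. Gapdh averaged 9.17 and Ldha 8.88, in the intermediate band, and both changed band under at least 1 alternative. Since their probe sets may bind poorly or meet other sequences, which was not tested, these values are not set against those of other enzymes.

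Other routes were less bright. Slc2a1, the general glucose transporter, read 11.16, 11.39 and 11.50 and the lactate and pyruvate transporter Slc16a1 11.18, the 2 bright genes of 16 transporters. Pgd was the 1 bright gene of 9 in the pentose phosphate route, at 11.77, and the glycogen phosphorylase of brain, Pygb, that of 13 in gluconeogenesis and glycogen, at 12.02. In serine and one-carbon metabolism 5 of 19 were bright, led by Mat2a, which makes S-adenosylmethionine, at 12.69, Psat1 at 12.45 and Shmt2 at 12.37. Aldh1l1, a folate enzyme also used as an astrocyte marker, read 10.07, 10.24 and 11.82 and was higher in line 8.

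Respiratory chain subunits were bright in 32 of 75 and near background in 6, with a median of 10.11. Beside Atp5b, Ndufs7 of complex I read 14.16 and Cox6a1 of complex IV 14.07. The lowest were forms of the testis, Cyct at 6.13, Cox7b2 at 4.90 and Cox8c at 4.84, while Cox8a, the general form of the last, was bright at 13.89. Liver-type enzymes were near background in 10 of 13, with the urate oxidase Uox at 4.98.

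**Figure D5:**
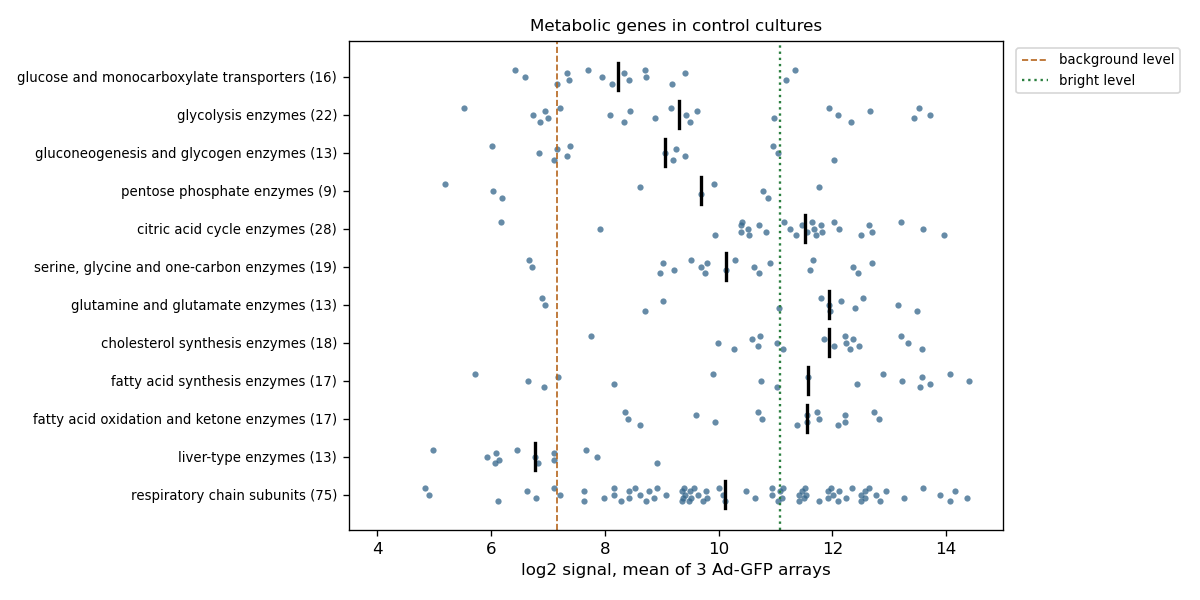
Mean log2 signal of the 3 Ad-GFP arrays (horizontal axis) for each measured gene (point) of 12 metabolic lists, with list medians (black bars), the number of genes in brackets, and the background level (dashed, 7.16) and bright level (dotted, 11.08). Citric acid cycle, glutamate, cholesterol, fatty acid synthesis and fatty acid oxidation genes have medians above the bright level, and liver-type enzymes have a median of 6.78, below the background level.

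Differences between the lines were tested for all genes on the 6 arrays, with the virus as a covariate, since 1 Ad-GFP array of a line has no spread of its own. By limma's moderated F test with Benjamini-Hochberg adjustment, 2 of 23152 genes (0.00864%) passed an adjusted p of 0.05, and 1152 had an unadjusted p under 0.05. Both that passed lie on the Y chromosome. Kdm5d, a histone demethylase, read 10.65, 5.74 and 10.48 on the Ad-GFP arrays (adjusted p = 0.0225 by limma). Uty, a relative of the X-linked demethylase Kdm6a, read 10.17, 5.16 and 10.02 (adjusted p = 0.0271 by limma). Line 7 was thus at background for these genes and lines 2 and 8 were not. Xist, the RNA that silences an X chromosome, went the other way at 6.46, 13.84 and 7.91 (adjusted p = 0.0763 by limma). The fit had 2 residual degrees of freedom. With 1 array of each line and virus, its residual holds array spread and any line difference that changed with the virus. A gene that was not called can therefore still differ between the control cultures. Without the arrays of line 7 the fit called 0 genes, with 1464 at an unadjusted p under 0.05, and without those of line 2 it called 34.

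Members of the lineage, receptor, channel and metabolic lists also spanned over 1 unit. Gria4, an AMPA receptor subunit, was highest in line 2, at 10.69, 9.38 and 8.48, and the collagen receptor Ddr2 read 9.97, 8.80 and 8.08. The oligodendrocyte genes Gpr17 (10.24, 10.39 and 9.37) and Aspa (9.51, 10.15 and 8.48) were lowest in line 8, and so were the potassium channel genes Kcnv1 (9.77, 9.77 and 8.62) and Kcnc4 (9.44, 9.68 and 8.62). The highest values of Mfng, which modifies Notch, and of Prom1 were in line 8, at 10.40 and 8.19. None of these passed the test for lines. Of the 212 genes with such spans, 9 were bright, 157 intermediate and 46 near background, and 51 spanned over 1 unit without line 8.

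The infection that all cultures share was looked at through the genes a virus meets. Interferon-induced and viral RNA sensing genes were near background in 15 of 21 and bright in none, in cultures where the receptor chains Ifnar2 and Ifngr2 were bright. Isg15 read 5.13, 4.94 and 5.08, Mx1 4.83, 4.77 and 4.86 and Ifnb1 5.22. The highest was Stat2, the transcription factor of this pathway, at 10.15, 10.17 and 9.96. Of 7 adenovirus entry genes 3 were bright and none near background. Itgav, an integrin chain used for uptake, read 12.13, and Cxadr, the attachment receptor, 8.77, 8.75 and 8.50. With 0 uninfected arrays, what infection itself changed could not be measured.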

How the data were processed

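RNA of 6 cultures was hybridised to 1 array each, and the 3 Ad-GFP arrays were described. The authors deposited log2 signals of probe sets. The submitters' processing notes name RMA and Affymetrix Expression Console. The sources used here give neither versions nor the genome build. The method equalises the signal distribution over arrays, and the number of arrays limits the precision. Median signals of probe sets were 8.42 to 8.43 on the Ad-GFP arrays.

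Of 269751 probe sets, the platform annotation, which can be old, gave 1 gene symbol to 233753, several to 5106 and none to 30892. Tukey's median polish, run for up to 20 iterations, combined the first kind into 23152 genes with a median of 8 probe sets each. The 54 lists held 1033 measured genes, 8 of them matched by a synonym in a RefSeq table, and 29 listed genes were not analysed here. Levels got no test. Line differences were tested with limma 3.58.1 in R 4.3.3 (moderated F for line, virus as covariate, variance trend, Benjamini-Hochberg adjustment at 0.05), checked on simulated data. Its p-values set line differences shared by both viruses against the residual, which includes line differences that changed with the virus. The replicate number is the cell line.

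Named were the 5 markers, Xist and Kdm5d, up to 6 highest and 3 lowest members of a list, related isoforms, list members spanning over 1 log2 unit, and the 20 highest genes; other members named were chosen after their values were seen. Members and lists were chosen with earlier results of these data known. Promoter windows came from RefSeq on GRCm38.p6. Alternatives concerned the summary of probe sets, the background reference, thresholds, normalization, filters and single lines.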

Additional observations from a re-analysis of the deposited data

How the results depend on the processing

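No paired analysis was possible because the replicate number is the cell line, which is itself what the only test compares. The viruses were not tested against each other. Of 1033 list genes, 499 kept their band under all 12 alternatives and 0 went from bright to near background or back. The share keeping its band was lowest with the brightest probe set of each gene, at 67.5%, and 97.4% with the line 8 arrays exchanged. Of 108 counts of list members bright or near background, 53 stayed within 1.5 times of their value with the brightest probe set, and 80 or more did under each other alternative. A bright level at the 95th percentile of all genes left 1158 bright genes. Near background were 6206 genes with the brightest probe set and 5244 among genes with at least 3 probe sets. The test for lines called 1 gene with the brightest probe set, 1 among genes above background on at least 1 array, 31 without the Ad-Cre array of line 2, and 0 to 34 without 1 line at a time. Spans over 1 log2 unit, with alternatives chosen after seeing the data, numbered 564 with the line 8 arrays exchanged and 51 to 144 without 1 line at a time, and among regional genes 1 to 10 without 1 line. The cause was not tested. Without detection calls, low signals hold background, so near background does not mean absent.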

Other observations

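Some of the widest spans between lines were in genes of no list, chosen after their values were seen. Mab21l2, a gene of eye and midbrain development, read 6.22, 11.37 and 5.97 on the Ad-GFP arrays of lines 2, 7 and 8. Six3os1, the transcript opposite Six3, read 8.88, 8.71 and 11.71, which is the direction of Six3 itself. Whether the probe sets of this pair share sequence was not tested. Fndc3c1, an X-linked gene, read 10.29 in line 8 and 7.28 in line 7, with line 2 lower still, and Cybrd1, an iron reductase, 8.66, 11.81 and 8.19. For these 4 the same line stood apart in the same direction, at any distance, on the Ad-Cre arrays. This held for 64 of the 212 genes spanning over 1 unit (30.2%). Over all genes, whatever their span, the share was 11.5% to 34.6%, depending on the line and direction. The recurrence did not hold for B230323A14Rik (10.54, 10.68 and 7.06) or Lix1 (6.13, 6.88 and 9.67). None of these genes passed the test for lines.

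The Y-linked genes were not of one pattern. Eif2s3y, a translation factor, read 11.16, 5.47 and 10.86 on the Ad-GFP arrays of lines 2, 7 and 8, like Kdm5d and Uty. On the Ad-Cre arrays it read 6.69, 5.51 and 10.96, while Kdm5d stayed at 10.24, 5.74 and 10.42.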
